A study of Mus musculus with 8 samples.

Results

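Chemokines are small secreted proteins that steer leukocytes, and the genes of these ligands and of their receptors are described here in primary mouse aortic smooth muscle cells (MASMCs) with and without *Hint1*. Members were taken by symbol, as every CC, CXC, XC, or CX3C ligand, every receptor of these families, every atypical receptor of the Ackr family, and *Ccrl2*. Of 18533 gene symbols, 56 were members, 34 of them ligands and 22 receptors. The samples were MASMCs of WT mice (n = 4) and of *Hint1*-/- mice (n = 4), and all 8 were treated with PDGF-BB at 20 ng/mL for 24 hours. No culture without PDGF-BB was analysed here, so every level below is a level under PDGF-BB. Per the study's methods, the cells came from male mice of 4 to 6 weeks, and adventitia and endothelium were removed from the aorta before digestion. The sources used here do not say whether replicates came from separate mice or cultures, so p-values measure only the spread between these samples, which may be technical. Samples held between 20778077 and 20888041 estimated counts, and levels are given as rounded estimated counts or as CPM, which scales counts to the library's TMM-adjusted size.

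Ligands bind G protein-coupled receptors that signal through the Gi class of G proteins, and atypical receptors bind ligands without that signal and remove them. CXC ligands with an ELR sequence, such as Cxcl1, Cxcl2, and Cxcl5, draw neutrophils through Cxcr2, while Ccl2 and Ccl7 draw monocytes through Ccr2. Vascular smooth muscle cells release chemokines when inflamed or stimulated by growth factors, and macrophages are a main source of Ccl3 and Ccl4.

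The labelled cell type was checked against marker genes. *Acta2*, which encodes smooth muscle actin, was counted 17467, 15956, 17855, and 17809 times in WT replicates 1, 2, 3, and 4 and 12142, 12331, 11882, and 11640 times in *Hint1*-/- replicates 1, 2, 3, and 4. *Myh11*, the smooth muscle myosin heavy chain, summed to 1703 counts over the WT samples and 579 over the *Hint1*-/- samples, and *Myocd*, its transcriptional coactivator, to 47 and 31, below the filter on low counts. Macrophage markers were abundant beside them. *Lyz2*, the lysozyme of macrophages and other myeloid cells, was counted 23425, 25205, 24242, and 27662 times in the WT samples and 19497, 20726, 20307, and 19601 times in the *Hint1*-/- samples. Per kb of exon this came to 914 CPM for WT and 734 CPM for *Hint1*-/- MASMCs, above the 376 and 263 CPM per kb of *Acta2*. The libraries named for smooth muscle cells thus also held RNA of macrophage markers, and the extraction protocol in the labels is written for aortic tissue and for BMDMs. Of the 10 macrophage markers, 7 were lower in *Hint1*-/- MASMCs at an adjusted p under 0.05, beside 10.2% of all genes tested. None passed the fold limit of 1.5. The 7 were *Lyz2*, *Csf1r*, *Cd68*, *Cd14*, *Ptprc*, *Adgre1*, and *Fcgr1*, with log2 fold changes from −0.44 for *Cd68* to −0.25 for *Cd14*. *Itgam* was at −0.04 (adjusted p = 0.523) and *Mrc1* at 0.58 (adjusted p = 0.0740) on the log2 scale, and *C1qa*, at 30 and 40 summed counts, was below the filter. No macrophage marker was at 0 in all samples.

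Summed over the macrophage list, the level was 2488, 2646, 2579, and 2855 CPM in WT replicates 1, 2, 3, and 4 and 2051, 2195, 2189, and 2094 CPM in *Hint1*-/- replicates 1, 2, 3, and 4. The *Hint1*-/- sums were all under the WT sums. The smooth muscle list summed to 1473, 1357, 1473, and 1475 CPM in the WT samples and 1189, 1212, 1163, and 1122 CPM in the *Hint1*-/- samples, also without overlap. Of its 7 tested genes, *Cnn1* at −1.12 (adjusted p = 4.99e-08) and *Myh11* at −1.54 (adjusted p = 5.28e-12) on the log2 scale were lower past both thresholds, beside 1.49% of all genes tested. By adjusted p alone 5 were lower and 1 was higher, beside 10.2% and 11.2% of all genes. Among the lower was *Acta2* at −0.51 (adjusted p = 1.35e-08), and the higher was *Smtn*, which encodes smoothelin, at 0.25 (adjusted p = 9.00e-05). *Tagln* at −0.11 (adjusted p = 0.0696) did not pass. The fibroblast list summed to 5479, 5071, 5257, and 4996 CPM in the WT samples and 5840, 5730, 5529, and 5923 CPM in the *Hint1*-/- samples, higher in *Hint1*-/- and without overlap. Of its 7 genes, 3 were higher and 2 lower by adjusted p, beside 11.2% and 10.2% of all genes. The matrix proteoglycans *Dcn* at 0.83 (adjusted p = 4.36e-12) and *Lum* at 0.88 (adjusted p = 1.30e-10) rose and *Dpt* at −0.79 (adjusted p = 1.33e-09) fell past both thresholds, beside 1.34% and 1.49% of all genes. The most abundant fibroblast marker per kb of exon, *Col1a1*, was at −0.17 (adjusted p = 0.0126). The higher fibroblast sum rested on *Dcn*, whose mean went from 1112 CPM for WT up to 1975 CPM without *Hint1*. The *Col1a1* mean went down, from 3687 to 3286 CPM. *Col1a1* did not pass the limit on p without WT replicate 1, at −0.13 (adjusted p = 0.0562), or *Hint1*-/- replicate 2, at −0.15 (adjusted p = 0.0517). Of the 4 tested Schwann cell markers, 3 fell past both thresholds, beside 1.49% of all genes. Among them was the most abundant per kb, *Sox10*, at −2.53 (adjusted p = 6.17e-13) on the log2 scale. Of the 6 cardiac muscle markers, 3 rose past both thresholds at low counts, beside 1.34% of all genes, while 1 did not pass and 2 were below the filter. The 3 were *Tnnt2* at 0.76 (adjusted p = 0.00600) and *Myh6* at 5.50 (adjusted p = 4.99e-08) on the log2 scale and *Myl7*. *Myh6* rests on 3, 0, 0, and 1 WT counts, and its value ranged from 5.13 to 6.80, highest without WT replicate 1, with each sample left out. *Myl7*, the most abundant cardiac marker per kb, had no counts in WT samples and 91 in *Hint1*-/- samples, at least 30.6-fold higher against a floor of 3 counts over the group. None of the 6 tested endothelial markers, led by *Egfl7*, had an adjusted p under 0.05. Of the neutrophil markers, led by *Csf3r* at −0.23 (adjusted p = 0.170), *S100a8* was called higher at 1.00 (adjusted p = 0.0486) with 4 to 22 counts per sample and overlapping genotypes. Leaving out WT replicate 4 or *Hint1*-/- replicate 3 kept this call and leaving out any other sample ended it, at values down to 0.76 without *Hint1*-/- replicate 4. *Ly6g*, *Mpo*, and *Elane* never passed 10 counts in a sample. Lymphocyte markers were led by *Lck* at −0.40 (adjusted p = 0.0202), which did not pass without WT replicate 4, at −0.34 (adjusted p = 0.0739), while *Cd3e*, *Cd3d*, *Cd4*, and *Cd79a* never passed 10 counts. In such bulk samples, fewer cells of a type and less RNA per cell cannot be told apart. The part of these cell type markers in the chemokine results was not tested.

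*Hint1*, the targeted gene, had 2272, 2336, 2364, and 2301 counts in the WT samples and 713, 748, 778, and 715 in the *Hint1*-/- samples. Each *Hint1*-/- sample was below every WT sample, at 32.1% of the mean WT level. The lower level goes with the labels, but transcript counts remained in every *Hint1*-/- sample, and which part of the gene was deleted is not given in the sources used here.

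Of the 56 members, 37 passed edgeR's filter on low counts, and 19 did not and were not tested. Members that rose past both thresholds, with edgeR's adjusted p below 0.05 and its fitted fold above 1.5, numbered 5, beside 1.34% of all genes tested. The 1 member that fell past both, *Cxcl10*, stood beside 1.49%. By adjusted p alone, 11 members were higher and 8 lower, beside 11.2% and 10.2% of all genes. The lowest *Hint1*-/- sample exceeded the highest WT sample in 12 members, and the reverse held in 8, beside 11.9% and 11.0% of all genes. The median log2 fold change over the tested members was −0.06, beside 0.00031 over all genes tested. All 6 called members were among the 26 tested ligands, and none of the 11 tested receptors passed both thresholds. By adjusted p alone 1 receptor was higher and 2 were lower.

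**Figure D1:**
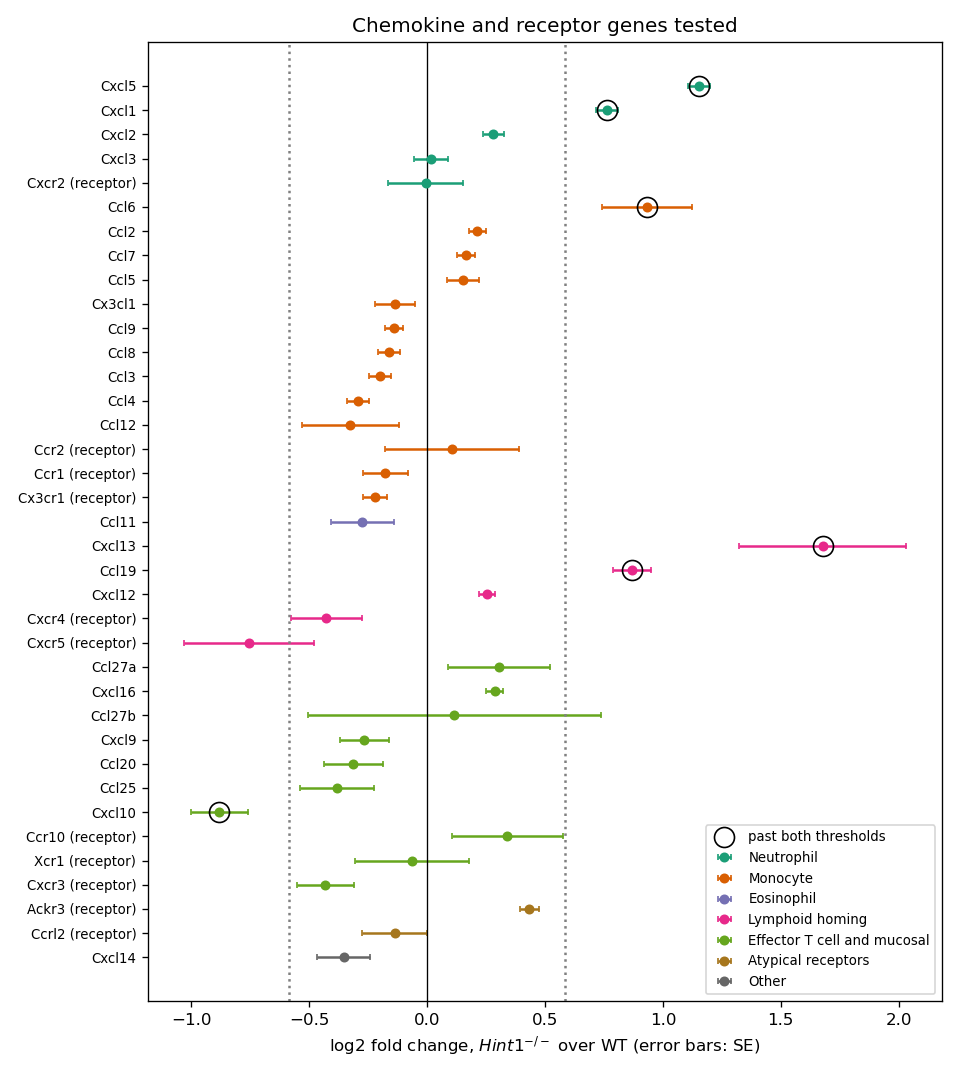
Log2 fold change of each of the 37 tested members in *Hint1*-/- over WT MASMCs on the horizontal axis, one gene per line, coloured by role, with the standard error as bar. Open circles mark the genes past both thresholds, dotted lines the fold limit of 1.5. *Cxcl13*, *Cxcl5*, *Ccl6*, *Ccl19*, and *Cxcl1* lie to the right of the limit and *Cxcl10* to the left of the lower one. *Cxcr5* also lies left of it but did not pass the limit on p.

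Levels of different genes were compared per kb of exon, from the GENCODE M21 annotation, with the exons of all transcripts of a gene merged. The order thus depends on the annotated transcripts. *Cxcl12*, at 1620 CPM in WT samples, has 8176 exon bases and came to 198 CPM per kb. The highest ligand, the main monocyte attractant *Ccl2*, was at 1737 CPM per kb in WT and 2014 in *Hint1*-/- MASMCs. *Ccl3*, which binds Ccr1, was at 1366 and 1190 CPM per kb, and *Ccl7*, a ligand of Ccr2, at 1177 and 1319. Below them, ordered by the mean over both genotypes, came *Ccl4* (439 and 358), *Ccl5* (315 and 350), and *Cxcl5* (161 and 357 CPM per kb). *Cxcl5* thus lay below *Ccl5* in WT and near it in *Hint1*-/- MASMCs. The highest receptor was the atypical receptor *Ackr3*, at 46.1 and 62.4 CPM per kb. The next receptor in WT, *Cx3cr1*, was at 5.40 and 4.64. Cxcr2, the receptor of the neutrophil ligands, was at 0.655 and 0.652 CPM per kb.

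Among neutrophil ligands, *Cxcl5* rose most. It was counted 6687, 6507, 6135, and 5701 times in the WT samples and 13271, 14786, 13248, and 13892 times in the *Hint1*-/- samples. All *Hint1*-/- samples were far above the WT samples, and the spread within each genotype was small beside the gap. WT MASMCs averaged 299 ± 20.8 CPM and *Hint1*-/- MASMCs 665 ± 36.0 CPM (SD, n = 4 per genotype). This was a log2 difference of 1.15 ± 0.047 (SE of the fit, adjusted p = 1.89e-12). *Cxcl1*, another Cxcr2 ligand, was counted 3935, 3557, 3388, and 3212 times in WT and 5752, 6072, 5841, and 6065 times in *Hint1*-/- samples. Its genotypes did not overlap, with 168 ± 14.9 CPM and 286 ± 8.02 CPM (SD, n = 4 per genotype) and a log2 fold change of 0.76 ± 0.048 (SE of the fit, adjusted p = 9.80e-10). *Cxcl2*, which has the same receptor, was at 0.28 (adjusted p = 1.50e-04) on the log2 scale, within the fold limit, and *Cxcl3* was at 0.02 (adjusted p = 0.903). *Cxcl15* had 7 and 12 summed counts in WT and *Hint1*-/- samples. The receptor *Cxcr2* was at −0.01 (adjusted p = 0.984), and *Cxcr1* had 0 and 1 counts.

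Summed over the 5 neutrophil ligands, the level was 680, 649, 615, and 573 CPM in the WT samples and 1097, 1209, 1110, and 1141 CPM in the *Hint1*-/- samples. All *Hint1*-/- sums were above all WT sums. The median log2 fold change of the 4 tested ligands was 0.52. Most of the sum was *Cxcl5* and *Cxcl1*. In these libraries the macrophage and smooth muscle sums were lower, and the fibroblast sum was higher, at 1.11 of its WT mean. That fibroblast rise rested on *Dcn*, while *Col1a1*, the largest part of the sum, was lower. Of the fibroblast genes, 3 were higher and 2 lower by adjusted p, beside 11.2% and 10.2% of all genes. The part of these lists in the neutrophil ligands was not tested.

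**Figure D2:**
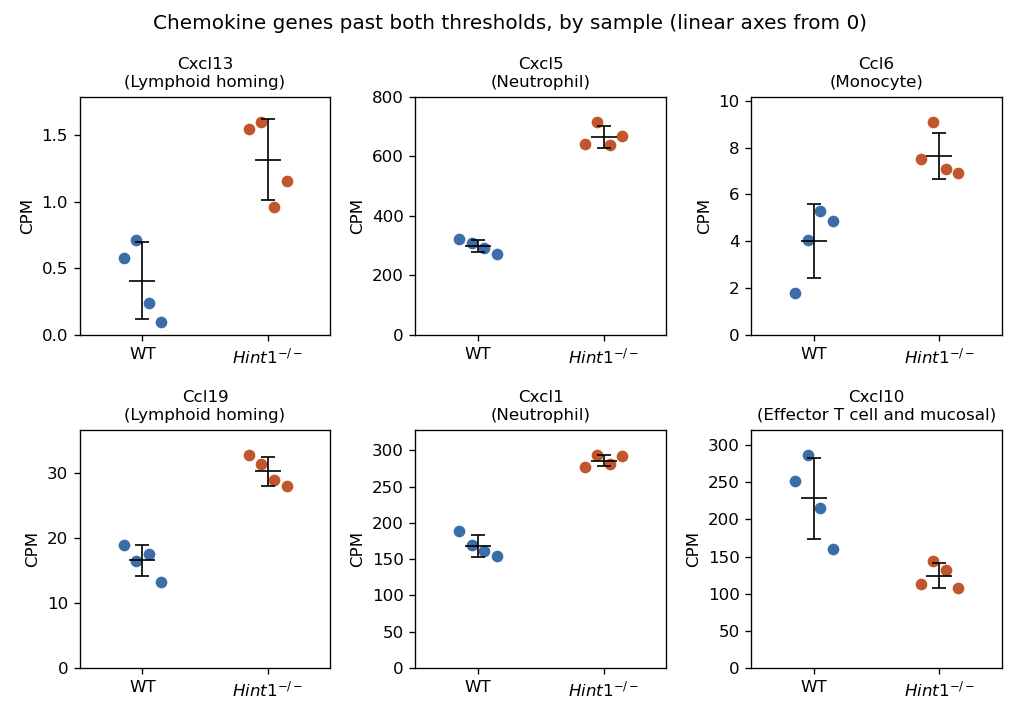
Level in CPM of each of the 6 called genes in the WT and *Hint1*-/- samples, each point a sample, with the mean and the SD (n = 4) as a black bar and vertical axes starting at 0. No genotype's points overlap the other's in any of the 6 panels.

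Monocyte ligands moved in both directions. *Ccl2* was counted 43048, 41358, 41671, and 39225 times in the WT samples and 48770, 47350, 48686, and 45350 times in the *Hint1*-/- samples. The genotypes did not overlap. The log2 fold change of *Ccl2*, 0.21 ± 0.036 (SE of the fit, adjusted p = 2.53e-04), stayed within the fold limit. *Ccl7* had 20515, 20658, 19394, and 18262 counts in WT and 22467, 22301, 21902, and 21001 in *Hint1*-/- samples, a log2 fold change of 0.16 ± 0.039 (SE of the fit, adjusted p = 0.00496). *Ccl7* likewise did not overlap between genotypes. *Ccl3* had 21115, 22464, 21042, and 22869 counts in WT and 18467, 20632, 19244, and 17290 in *Hint1*-/- samples. For *Ccl4*, which draws monocytes and T cells, counts were 5716, 6299, 5884, and 6337 in WT and 4805, 5182, 5177, and 4459 in *Hint1*-/- samples. The *Hint1*-/- values of both lay under all WT values, at −0.20 ± 0.046 (SE of the fit, adjusted p = 0.00390) for *Ccl3* and −0.29 ± 0.046 (SE of the fit, adjusted p = 1.21e-04) for *Ccl4* on the log2 scale. *Ccl5*, which draws monocytes and T cells, had 6667, 7270, 6232, and 5106 counts in WT and 7202, 6889, 6882, and 6906 in *Hint1*-/- samples. WT replicate 4 was the lowest of the 8 *Ccl5* values, the genotypes overlapped, and the log2 fold change was 0.15 ± 0.068 (SE of the fit, adjusted p = 0.122). It was 0.06 (adjusted p = 0.335) without WT replicate 4 and 0.22 (adjusted p = 0.0120) without WT replicate 2, so single WT samples decide whether it passes.

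*Ccl6* was the monocyte ligand past both thresholds, at a much lower level. It had 37, 85, 111, and 102 counts in the WT samples and 156, 188, 147, and 144 in the *Hint1*-/- samples. WT replicate 1 was the lowest, and every *Hint1*-/- sample exceeded every WT sample. The log2 fold change of *Ccl6* was 0.93 ± 0.19 (SE of the fit, adjusted p = 0.00151). Of the others, *Ccl8* was at −0.16 (adjusted p = 0.0201) and *Ccl9* at −0.14 (adjusted p = 0.0143), while *Ccl12* at −0.33 (adjusted p = 0.292) and *Cx3cl1* at −0.14 (adjusted p = 0.284) did not pass the limit on p. Nor did *Ccl8* without WT replicate 4, at −0.12 (adjusted p = 0.0726), *Hint1*-/- replicate 3, at −0.14 (adjusted p = 0.0680), or *Hint1*-/- replicate 4, at −0.13 (adjusted p = 0.0795), or *Ccl9* without *Hint1*-/- replicate 4, at −0.11 (adjusted p = 0.0583). Among receptors on monocytes, *Cx3cr1*, the receptor of Cx3cl1, was at −0.22 (adjusted p = 0.00409), *Ccr1* at −0.18 (adjusted p = 0.213), and *Ccr2* at 0.11 (adjusted p = 0.841).

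Summed over the 10 monocyte ligands, the level was 4900, 4930, 4754, and 4654 CPM in WT and 5140, 5193, 5128, and 4793 CPM in *Hint1*-/- samples. The genotypes overlapped, since *Hint1*-/- replicate 4 lay within the WT range. The 4 monocyte receptors together were at 31.5, 31.6, 29.9, and 31.8 CPM in WT and 26.4, 27.6, 27.9, and 27.4 CPM in *Hint1*-/- samples, without overlap. The macrophage list's sum stood at 0.807 of its WT mean and the monocyte receptors' sum at 0.875, beside 1.05 for the monocyte ligands. Of the tested monocyte ligands, the median log2 fold change was −0.14. *Ccl3*, *Ccl4*, *Ccl8*, *Ccl9*, and *Cx3cr1* lay lower in the same direction as *Lyz2*, *Cd68*, and *Csf1r*, while *Ccl2*, *Ccl7*, and *Ccl6* lay higher. Nor did all macrophage markers fall, with *Mrc1* at 0.58 (adjusted p = 0.0740) and *Itgam* at −0.04 (adjusted p = 0.523). The part of the macrophage markers was not tested.

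**Figure D3:**
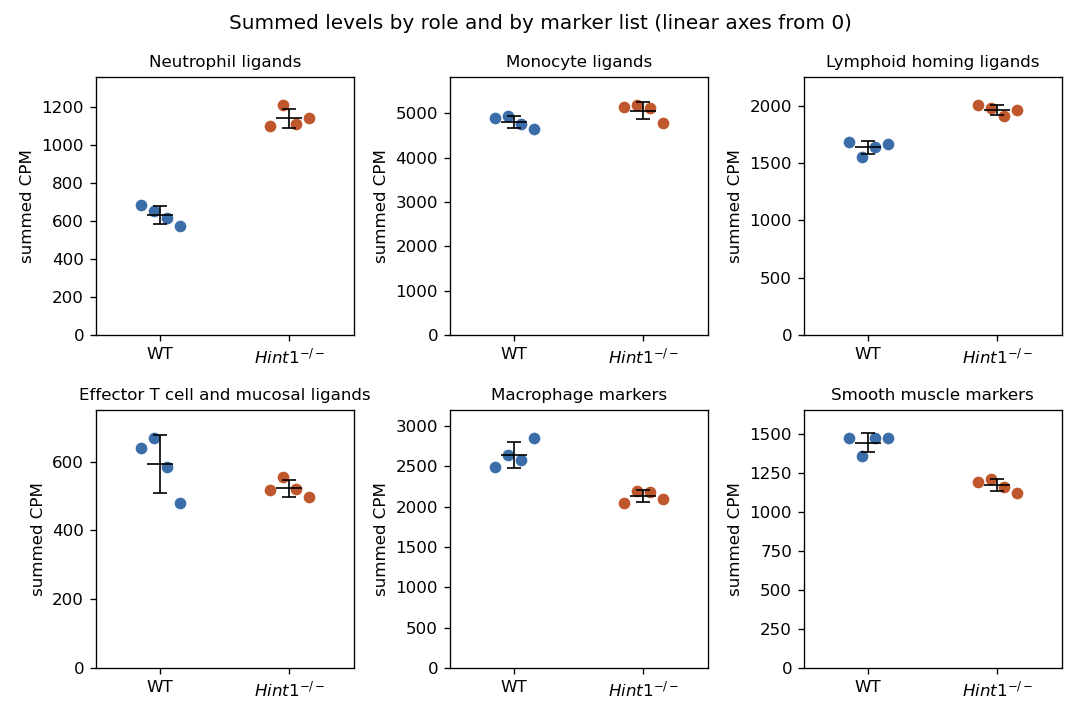
Summed CPM of the ligands of 4 roles and of the macrophage and smooth muscle marker lists in each WT and *Hint1*-/- sample (points), with the mean and the SD (n = 4) as black bars and axes starting at 0. Neutrophil and lymphoid homing ligands lie higher in all *Hint1*-/- samples, monocyte and effector T cell ligands overlap, and both marker lists lie lower.

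The 3 tested ligands of lymphoid homing were all higher by adjusted p, beside 11.2% of all genes tested. *Ccl19*, which guides T cells and dendritic cells through Ccr7, was counted 394, 345, 366, and 277 times in the WT samples and 678, 648, 600, and 581 times in the *Hint1*-/- samples. WT replicate 4 was the lowest, and the genotypes did not overlap. The log2 fold change was 0.87 ± 0.081 (SE of the fit, adjusted p = 2.63e-07). *Cxcl13*, the B cell attractant that binds Cxcr5, had 12, 15, 5, and 2 counts in WT and 32, 33, 20, and 24 in *Hint1*-/- samples. Its genotypes did not overlap either, though with at most 33 counts in a sample, and its log2 fold change was 1.68 ± 0.35 (SE of the fit, adjusted p = 0.00192). *Cxcl12*, the ligand of Cxcr4 and Ackr3, was abundant, at 1620 ± 57.0 CPM in WT and 1934 ± 39.9 CPM in *Hint1*-/- MASMCs (SD, n = 4 per genotype). Every *Hint1*-/- sample of *Cxcl12* was above every WT sample, with a log2 fold change of 0.26 ± 0.034 (SE of the fit, adjusted p = 1.71e-05), within the fold limit. *Ccl21b* had 3 and 3 summed counts in WT and *Hint1*-/- samples. Of their receptors, *Cxcr4* was at −0.43 (adjusted p = 0.0505), at the edge of the limit on p, *Cxcr5* was at −0.76 (adjusted p = 0.0579), and *Ccr7* had 3 and 3 counts. *Cxcr4* passed that limit without WT replicate 2, at −0.51 (adjusted p = 0.0258), or *Hint1*-/- replicate 1, at −0.49 (adjusted p = 0.0487), and with other scalings. Summed over the 4 ligands, the level was 1683, 1557, 1639, and 1671 CPM in WT and 2010, 1978, 1910, and 1965 CPM in *Hint1*-/- samples, without overlap, and nearly all of it was *Cxcl12*.

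Among ligands of effector T cells and mucosal cells, *Cxcl10* fell. This interferon-induced ligand of Cxcr3 was counted 5254, 6008, 4494, and 3337 times in the WT samples and 2350, 2982, 2734, and 2224 times in the *Hint1*-/- samples. The WT samples were widely spread, with replicate 4 the lowest of them, yet every *Hint1*-/- sample lay below it. Means of 228 ± 54.1 CPM for WT and 124 ± 16.9 CPM for *Hint1*-/- MASMCs (SD, n = 4 per genotype) gave −0.88 ± 0.12 (SE of the fit, adjusted p = 3.17e-05) on the log2 scale. *Cxcl9*, a neighbouring interferon-induced ligand of the same receptor, was counted 2542, 2787, 2288, and 1593 times in WT and 1955, 1924, 1875, and 1846 times in *Hint1*-/- samples. WT replicate 4 again had the lowest value, here the lowest of all 8 samples. The log2 fold change of *Cxcl9* was −0.27 ± 0.10 (SE of the fit, adjusted p = 0.0765). Without WT replicate 4 it was −0.41 (adjusted p = 5.90e-06), and without WT replicate 2 −0.16 (adjusted p = 0.249), so the value and its side of the limit on p rest on single WT samples. *Cxcl16*, the ligand of Cxcr6, was at 0.29 (adjusted p = 9.77e-06), while *Ccl20* at −0.31 (adjusted p = 0.0853), *Ccl25* at −0.38 (adjusted p = 0.0902), *Ccl27a* at 0.31 (adjusted p = 0.358), and *Ccl27b* at 0.12 (adjusted p = 0.920) did not pass the limit on p. *Ccl20* passed it without WT replicate 4, at −0.40 (adjusted p = 0.0233), or *Hint1*-/- replicate 1, at −0.39 (adjusted p = 0.0488). *Ccl28*, below the filter, had 57 and 19 summed counts, a ratio of 0.336 (95% exact interval 0.189 to 0.573, counting error only). Without WT replicate 4 or any 1 of the *Hint1*-/- samples it passed the filter and was called lower, at −1.77 to −1.39 on the log2 scale. Summed over the 11 ligands, the level was 639, 669, 586, and 479 CPM in WT and 517, 555, 522, and 496 CPM in *Hint1*-/- samples, with overlap.

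Their receptors were rare. *Cxcr3* was lower, at −0.43 (adjusted p = 0.0164), from 352 and 259 summed counts in WT and *Hint1*-/- samples, while *Ccr10* was at 0.34 (adjusted p = 0.375) and *Xcr1* at −0.06 (adjusted p = 0.887). *Cxcr3* no longer passed the limit on p without WT replicate 4, at −0.38 (adjusted p = 0.0525), or *Hint1*-/- replicate 1, at −0.38 (adjusted p = 0.0537). The other counts summed over WT and over *Hint1*-/- samples were 16 and 18 for *Cxcr6*, 7 and 3 for *Ccr4*, 4 and 0 for *Ccr6*, and 11 and 4 for *Ccr9*. For the ligands they were 9 and 6 for *Ccl17*, 2 and 5 for *Ccl22*, and 1 and 1 for *Xcl1*. These genes were below the filter and were not tested.

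The eosinophil ligand *Ccl11* was at −0.28 (adjusted p = 0.161), *Ccl24* had 0 and 1 summed counts, and the receptor *Ccr3* had 27 and 15. *Ackr3*, the atypical receptor that removes Cxcl12, was counted 3289, 3355, 3065, and 3213 times in the WT samples and 4317, 4593, 4026, and 4389 times in the *Hint1*-/- samples. Every *Hint1*-/- sample was above every WT sample, with a log2 fold change of 0.43 ± 0.041 (SE of the fit, adjusted p = 2.90e-07), within the fold limit. *Ackr3* and its ligand *Cxcl12* were thus both higher. *Ccrl2* was at −0.14 (adjusted p = 0.538), and *Ackr1*, *Ackr2*, and *Ackr4* had 6 and 3, 5 and 3, and 12 and 9 summed counts in WT and *Hint1*-/- samples. Outside these roles, *Cxcl14* was lower at −0.35 (adjusted p = 0.0326), and *Cxcl17* had 1 and 2 counts. *Cxcl14* did not pass without WT replicate 3 or 4 or *Hint1*-/- replicate 1 or 2, at −0.36 to −0.28 on the log2 scale.

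Many members lie side by side in the genome, with positions from GENCODE M21 on GRCm38, the assembly that mm10 names. On chromosome 5, *Cxcl5*, *Cxcl3*, *Cxcl15*, *Cxcl1*, and *Cxcl2* lie between 90759360 and 90905938. In this cluster *Cxcl5* (chromosome 5 from 90759360 to 90761624) and *Cxcl1* (chromosome 5 from 90891241 to 90893115) rose, *Cxcl2* was higher by adjusted p alone, *Cxcl3* did not pass the test, and *Cxcl15* was below the filter. *Cxcl9* and *Cxcl10* lie between 92321347 and 92348889 on the same chromosome, *Cxcl10* on chromosome 5 from 92346638 to 92348889, and had log2 fold changes below 0. *Cxcl13* lies on chromosome 5 from 95956951 to 95961068. On chromosome 11, *Ccl2*, *Ccl7*, *Ccl11*, *Ccl12*, and *Ccl8* lie between 82035571 and 82116799. Of these, *Ccl2* and *Ccl7* were higher and *Ccl8* was lower by adjusted p. Further along, *Ccl5*, *Ccl9*, *Ccl6*, *Ccl3*, and *Ccl4* lie between 83525778 and 83664683, and *Ccl6* (chromosome 11 from 83587882 to 83593087) rose there while *Ccl3*, *Ccl4*, and *Ccl9* were lower. *Hint1* lies on the same chromosome, 27.2 Mb before the nearer of these clusters. *Ccl19* is on chromosome 4 from 42754525 to 42756577. Both clusters on chromosome 11 thus held members higher and members lower by adjusted p, as 11.2% and 10.2% of all genes tested were.

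Similar neighbours can share reads. At least 1 sample had an estimated count more than 0.001 from a whole number in 17 of the tested members, and all 8 samples did in 13, among them *Cxcl5*, *Ccl19*, *Ccl3*, *Ccl4*, *Cxcl2*, *Cxcl3*, *Cxcl9*, *Ccl9*, and *Cx3cr1*. Their levels are uncertain to the extent that the counting divided reads between similar transcripts or overlapping genes. Counts of *Cxcl1*, *Cxcl10*, *Ccl6*, *Cxcl13*, *Ccl2*, *Ccl7*, and *Cxcl12* were whole in every sample.

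Promoters in RefSeq on GRCm38.p6, from 250 bases before to 50 after a gene's start, were given for 43 members and 32851 starts in all. Some members have several starts, 52 in total, and shares are counted per start. Motifs were searched on both strands. The NF-kB consensus was held by 12 of 52 member promoters (23.1%) and 8.46% of all promoters, TATAAA by 14 of 52 member promoters (26.9%) and 13.6% of all promoters, and the interferon response letters GAAANNGAA by 7 of 52 member promoters (13.5%) and 8.56% of all promoters. The AP-2 letters GCCNNNGGC were held by 5 of 52 member promoters (9.62%) and 16.6% of all promoters, and the E-box CACGTG by 2 of 52 member promoters (3.85%) and 7.15% of all promoters. These are matches of letters, not sites of binding. Shown are 3 of the called members with the bases before the start, which is the base after the last printed one, and capitals mark matches. *Cxcl1*, which rose, held the NF-kB consensus from −71 to −62 relative to the start, overlapping a match on the other strand. *Cxcl10*, which fell, held GAAANNGAA from −213 to −205 and the NF-kB consensus at overlapping and separate places, first from −159 to −150. *Cxcl13* held TATAAA from −46 to −41. *Ccl19*, not printed, held GAAANNGAA from −208 to −200, and *Ccl6* held none of the letters searched. *Cxcl5* was not among the 43 members.
Cxcl1 (chr5:90890995-90891244, plus strand): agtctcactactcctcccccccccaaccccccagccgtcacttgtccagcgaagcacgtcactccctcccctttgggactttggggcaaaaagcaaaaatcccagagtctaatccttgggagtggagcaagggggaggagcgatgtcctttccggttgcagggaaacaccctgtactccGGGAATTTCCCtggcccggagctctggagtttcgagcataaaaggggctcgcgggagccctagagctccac
Cxcl10 (chr5:92348890-92349139, minus strand): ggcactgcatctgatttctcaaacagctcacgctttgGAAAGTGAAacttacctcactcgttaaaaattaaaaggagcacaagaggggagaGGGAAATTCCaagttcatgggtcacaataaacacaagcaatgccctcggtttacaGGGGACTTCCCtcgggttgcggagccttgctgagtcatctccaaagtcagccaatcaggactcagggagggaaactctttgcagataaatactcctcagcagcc
Cxcl13 (chr5:95956689-95956938, plus strand): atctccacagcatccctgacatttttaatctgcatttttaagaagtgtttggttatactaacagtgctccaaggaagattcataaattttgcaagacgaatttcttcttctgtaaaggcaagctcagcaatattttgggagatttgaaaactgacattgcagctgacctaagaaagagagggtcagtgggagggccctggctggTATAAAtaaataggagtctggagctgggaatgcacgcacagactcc

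Genes that act upstream and downstream of chemokines were described from lists. Of 41 tested genes of chemokine induction, none passed both thresholds. 10 were higher and 6 lower by adjusted p, beside 11.2% and 10.2% of all genes, with a median log2 fold change of 0.01. *Irf7*, the most abundant per kb of exon, was at −0.08 (adjusted p = 0.233), and without WT replicate 4 it passed the limit on p, at −0.14 (adjusted p = 0.00426). Chosen after their values were seen, *Il6* was at 0.39 (adjusted p = 3.52e-05) and the NF-kB cofactor *Nfkbiz* at 0.25 (adjusted p = 5.05e-05), while the interferon regulatory factor *Irf1* was at −0.18 (adjusted p = 0.00193) on the log2 scale. *Cebpd* was higher too, at 0.50 (adjusted p = 2.93e-09). Neither side of the list moved as one. The interferon receptor gene *Ifnar2* was higher, at 0.23 (adjusted p = 3.17e-05). *Myd88* at −0.19 (adjusted p = 9.44e-04) and *Tnf* at −0.14 (adjusted p = 0.0369) were lower.

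Of 35 tested genes of chemokine receptor signalling, 5 were higher and 12 lower by adjusted p, beside 11.2% and 10.2% of all genes, none past both thresholds, with a median log2 fold change of −0.05. *Gnai2*, the most abundant G protein subunit per kb, was at −0.06 (adjusted p = 0.229). The lower genes included *Rac2* at −0.36 (adjusted p = 2.77e-06), *Vav1* at −0.31 (adjusted p = 1.92e-04), and *Dock2* at −0.27 (adjusted p = 4.59e-04), which are known for expression in blood cells and were chosen after their values were seen. They lay lower beside 7 of the 10 macrophage markers, whose part was not tested.

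Of 21 genes that present or cleave chemokines, 4 rose and 1 fell past both thresholds, beside 1.34% and 1.49% of all genes, with a median log2 fold change of 0.06. *Mmp3*, a stromal protease and the most abundant per kb of exon, was counted 37713, 33510, 37406, and 37329 times in WT and 68958, 75047, 67502, and 66465 times in *Hint1*-/- samples. It did not overlap between genotypes, with a log2 fold change of 0.94 ± 0.045 (SE of the fit, adjusted p = 2.16e-11). *Mmp12*, the macrophage elastase, was at 1.04 (adjusted p = 3.30e-04), *Mmp8*, the neutrophil collagenase, at 0.81 (adjusted p = 0.0134), and *Mmp9*, a gelatinase, at −0.76 (adjusted p = 9.20e-05) on the log2 scale. *Dpp4*, the peptidase that trims Cxcl10 and Cxcl12, had 1, 48, 16, and 15 counts in WT and 64, 37, 53, and 33 in *Hint1*-/- samples. These overlapped, and its log2 fold change was 1.23 ± 0.42 (SE of the fit, adjusted p = 0.0450). The call rests on single samples, since it was lost without WT replicate 1, 3, or 4 or *Hint1*-/- replicate 1, 2, or 3, at 0.84 to 1.33, and the value was 2.13 without WT replicate 2. *Mmp8* lost its call without *Hint1*-/- replicate 1, at 0.71.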

How the data were processed

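RNA-Seq of 4 WT and 4 *Hint1*-/- MASMC samples was analysed. Per the study's methods, reads were aligned by the authors to the mm10 assembly using HISAT2, while the submitters' processing notes list Bowtie2, RSEM 1.3.1, and DESeq2 1.4.5. The deposited values are estimated counts per gene symbol, not normalized, and were rounded here. Genes were filtered with filterByExpr and scaled by TMM, and the genotypes were compared with edgeR 4.0.16 (glmQLFit and glmQLFTest, two-sided) in R 4.3.3, with Benjamini-Hochberg adjustment over all 13535 genes tested. SE is the log2 fold change divided by the square root of F. Log2 CPM used a prior count of 2. Within genotypes, a chi-square statistic per gene between samples was 2.10 to 5.48, where sampling noise alone gives about 1.

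Members and lists were chosen with earlier results of these data known. Named were *Hint1*, every member, and from the lists every called gene and the most abundant gene per kb, except some genes that are not reported here. The lists were chemokine induction, receptor signalling, presentation and cleavage, and markers of smooth muscle, macrophages, fibroblasts, Schwann cells, cardiac muscle, endothelium, neutrophils, and lymphocytes. *Dpp4*, *S100a8*, and *Mmp8* rest on low counts. Positions came from GENCODE M21 and promoters from RefSeq. The steps were tested on simulated data. Alternatives were other normalizations and filters, unrounded counts, leaving out each sample, blocking by replicate number, DESeq2 1.42.0, limma-voom (limma 3.58.1), and no fold limit.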

Additional observations from a re-analysis of the deposited data

Results flagged for a closer look

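Of 190 groups of 4 samples examined, 14 held a sample whose gap to its nearest neighbour took more of the group's range than Dixon's 95% critical value allows, where chance marks about 1 in 20 groups. Among single genes these were *Ccl11* in *Hint1*-/- replicate 3 (2.16 log2 CPM beside 1.91 to 1.95 in the other samples), *Ccl5* in *Hint1*-/- replicate 1 (8.44 log2 CPM beside 8.37 to 8.38 in the other samples), *Acta2* in WT replicate 2 (9.57 log2 CPM beside 9.71 to 9.74 in the other samples), and *Gnai2* in *Hint1*-/- replicate 4 (9.61 log2 CPM beside 9.68 to 9.70 in the other samples). The others were *Irf7* in WT replicate 4 (9.31 log2 CPM beside 9.56 to 9.58 in the other samples), *Mmp3* in WT replicate 2 (10.64 log2 CPM beside 10.80 to 10.82 in the other samples), and *Myh6* in *Hint1*-/- replicate 4 (0.71 log2 CPM beside 1.43 to 1.54 in the other samples). Among summed levels they were the eosinophil ligands summed in *Hint1*-/- replicate 3 (4.42 CPM beside 3.66 to 3.77 in the other samples), the monocyte ligands and receptors summed in *Hint1*-/- replicate 4 (4820 CPM beside 5156 to 5221 in the other samples), the monocyte ligands summed in *Hint1*-/- replicate 4 (4793 CPM beside 5128 to 5193 in the other samples), and the cardiac muscle markers summed in WT replicate 3 (1.58 CPM beside 2.29 to 2.40 in the other samples). The last were the endothelial markers summed in *Hint1*-/- replicate 2 (8.94 CPM beside 7.18 to 7.24 in the other samples), the lymphocyte markers summed in WT replicate 4 (5.56 CPM beside 4.69 to 4.76 in the other samples), and the smooth muscle markers summed in WT replicate 2 (1357 CPM beside 1473 to 1475 in the other samples). The cause was not tested.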

How the results depend on the processing

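The 6 called members were called in all fits with a sample left out, with other normalizations, with unrounded counts, with no filter, under DESeq2, and under limma-voom. With at least 10 counts in every sample, *Cxcl13* was not tested and 5 were called, and *Ccl28* was added to make 7 with no filter, under DESeq2, and without WT replicate 4 or any 1 *Hint1*-/- sample, as *Cxcr5* was under limma-voom. With each sample left out, 6 to 7 members and 350 to 390 genes were called, against 383 genes with all samples. Without the fold limit, 2907 genes and 19 members were called. With the replicate number as a block, 382 genes and 6 members were called, and no call of a named gene by both thresholds changed, while *Ccl5* (adjusted p = 0.0374), *Cxcl9* (adjusted p = 0.0225), and *Cxcr4* (adjusted p = 0.0474) passed the limit on p. Same-numbered samples deviated from their genotype means with correlations of −0.045 to 0.0814, not always the highest of their sample. With 4 samples per genotype, these values cannot show whether same-numbered samples were handled together. The median log2 fold change of all genes was −0.0106 with upper-quartile factors, the scaling that moved it most.

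Log2 fold changes near 0 changed sign: *Cxcr2* was at 0.00020 with unrounded counts. With each sample left out, *Cxcr2* ranged from −0.051 to 0.067, *Ccl27b* from −0.61 to 0.53, *Ccr2* from −0.10 to 0.35, *Ccrl2* from −0.23 to 0.047, *Cxcl3* from −0.054 to 0.096, and *Xcr1* from −0.25 to 0.076. None of these members was called in any fit. Without changing sign or passing the limit on p, *Ccl11* ranged from −0.35 to −0.14, *Ccl27a* from 0.11 to 0.48, and *Cx3cl1* from −0.21 to −0.04 with each sample left out. By adjusted p alone, *Cxcr4* passed with DESeq2 size factors (0.0498), upper-quartile factors (0.0461), and at least 10 counts in every sample (0.0373), and *Cxcl9* passed with no filter (0.0352). Under DESeq2 *Cxcl14* (0.0852) and *Cxcr3* (0.0607) did not pass, nor did the list gene *Lck* (0.0869). Called list genes at low counts, *Dpp4*, *Mmp8*, and *S100a8*, lost their calls under DESeq2 and in fits with a sample left out, *S100a8* also with upper-quartile factors and with no filter. The number of reads limits members below the filter, and the cause of each change was not tested.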
